A study of Mus musculus with 6 samples.

Results

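The cytosolic chaperones described here are Hsp90aa1, Hspa8, Hspa4, Hsph1, Dnajb1, Hspb1, Cct2, Cct3 and Cct5, 9 of the 12393 genes with a probe set that names them alone. They were taken by gene symbol, as all probe sets whose platform annotation gives exactly 1 symbol, which yielded 26 probe sets. The HSP90 gene Hsp90ab1 was on the list of 10 symbols but had no such probe set and is not analysed here. RNA came from 6 lines of primary fibroblasts grown from mouse embryos, each kept for 2 passages under the same conditions and measured on 1 Affymetrix array. The chromosomally unstable lines were 2 BubR1 H/H lines, with reduced function of BubR1, which delays anaphase until chromosomes are attached, and 1 CDC20 AAA/AAA line, mutant in CDC20, which BubR1 inhibits. The labels call both alleles hypomorphic. The stable lines were 2 BubR1 +/+ lines and 1 CDC20 +/+ line, each labelled wild type at the locus named. The title numbers 9515, 9938 and 10074 each belong to 1 unstable and 1 stable line, called a pair here, and pair 10074 holds the CDC20 lines. No label states that each line is its own embryo; the spread behind the p-values is that between these lines, which may be technical.

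Chaperones bind unfolded or partly folded proteins and help them reach their native form. The HSP70 protein Hspa8 cycles on and off its clients with the help of J-domain proteins such as Dnajb1, which stimulate its ATPase, and of the HSP110 proteins Hspa4 and Hsph1, which act as nucleotide exchange factors. Hsp90aa1 takes over later stages of folding for many kinases and receptors, the small heat shock protein Hspb1 holds unfolded proteins without using ATP, and the ring-shaped chaperonin CCT folds actin and tubulin. When unfolded protein accumulates, the transcription factor HSF1 raises the transcripts of the inducible chaperones, above all Hspa1a and Hspa1b, so these transcripts are commonly read as a sign of proteotoxic stress. Cells with extra or missing chromosomes make some proteins in unbalanced amounts, and the comparison of unstable with stable lines therefore asks whether chaperone transcripts differ between them.

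The values are log2 values from GCRMA, which corrects the background and brings all arrays to a common distribution, with array medians between 6.156 and 6.196. Precision is limited by having 6 arrays. Of the genes, 8382 lay at or above a floor of 4 (log2) on 3 or more arrays and were tested, with each gene represented by its brightest probe set. All 9 chaperones were among them, as were 25 of their 26 probe sets; the exception was 1 of the 6 probe sets of Cct3. As a check of the labels, Bub1b, the gene of BubR1, measured 6.14 and 6.43 in the BubR1 H/H lines and 7.00 in the CDC20 AAA/AAA line, against 7.81 and 8.51 in the BubR1 +/+ lines and 7.61 in the CDC20 +/+ line. Cdc20 differed by -0.10, -0.81 and -0.81 in pairs 9515, 9938 and 10074, so it was as low in a BubR1 pair as in the CDC20 pair and does not check the CDC20 label. All 12 fibroblast markers were above the floor of 4 on every array. So were 11 of the 12 macrophage and leukocyte markers, with Itgam below the floor; their summed level on the log2 scale ranged from 11.96 to 14.29 in unstable and from 12.07 to 14.31 in stable lines. The smooth muscle markers were also present, with 6 of 6 above the floor on every array and sums of 13.88 to 14.15 in unstable and 13.87 to 14.25 in stable lines. The epithelial markers Cdh1, Epcam, Krt5 and Cldn4 and the endothelial markers Pecam1, Cdh5, Emcn and Esam stayed below it on every array. Other members of these lists did not: Krt18 was above the floor on all 6 arrays, at 5.93 to 7.02 in unstable and 6.52 to 6.84 in stable lines, Kdr on 4 arrays, Krt8 on 3, and Krt14 and Tek on 1 each.

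Most of the chaperone transcripts differed little between unstable and stable lines. The mean difference was under 0.1 on the log2 scale in 7 of the 9 genes, where 47.9% of all genes tested were that close, and the exceptions were Hspa4 at -0.10 and Hspb1 at 0.35. Over the group means 7 of the 9 were lower in unstable lines, beside 52.1% of all genes, with a median of -0.037 beside -0.0087 for all genes. By limma (two-sided, Benjamini-Hochberg adjusted over all genes), 0 of the 9 passed an adjusted p of 0.05, as did 0% of all genes tested. At an unadjusted p under 0.05 there were again 0 of the 9, beside 4.28% of all genes. With title number as a block there was 1 of the 9, Hspb1, beside 12.2% of all genes. Over their 25 probe sets the fit without a block had 0 at that threshold, beside 4.17% of all probe sets. None of the 9 genes had groups that did not overlap, which 9.95% of all genes had, and 0 differed by 1 log2 unit or more, as 0.656% did. These are bulk samples, in which fewer cells of a type and less RNA per cell cannot be told apart.

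**Figure D1:**
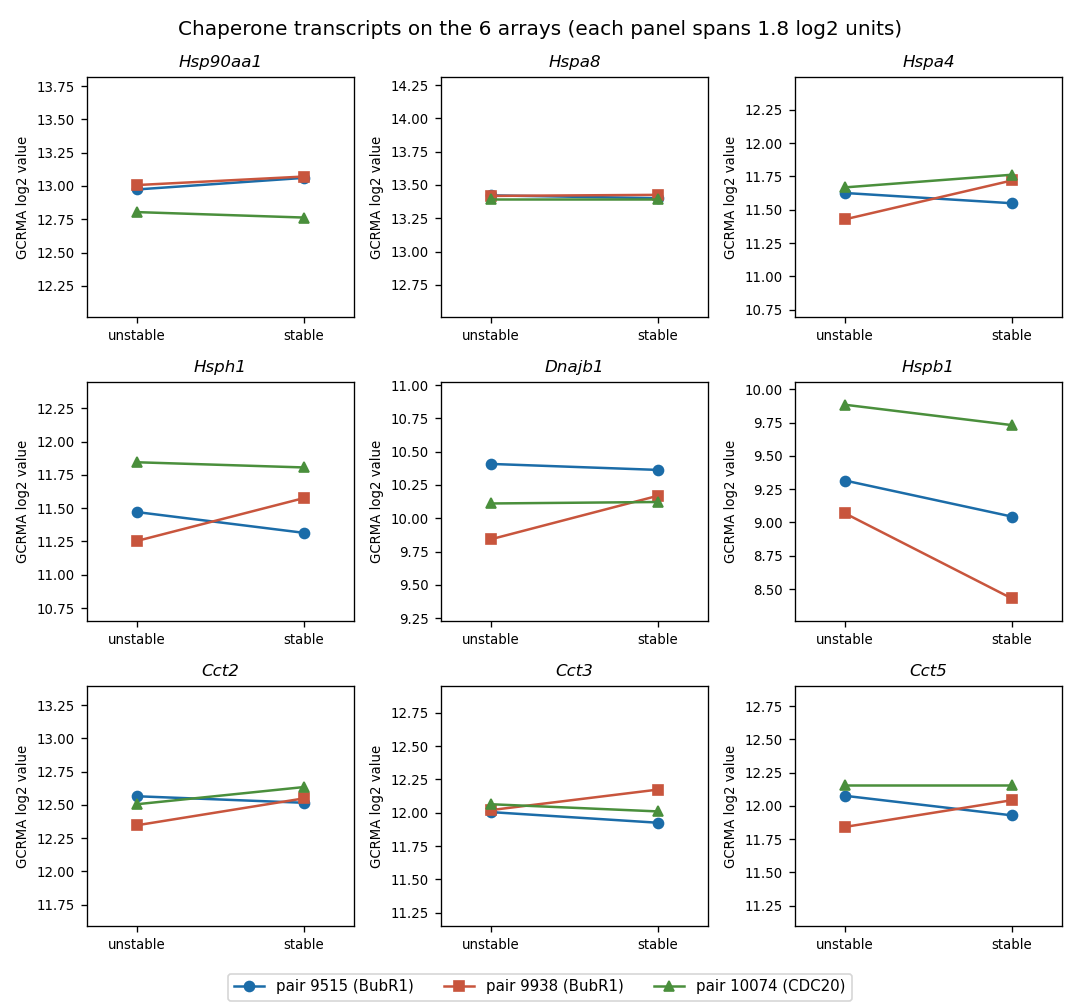
GCRMA log2 values (y axis) of 9 chaperone genes in unstable and stable lines (x axis), with a line joining the lines of each title number. Each panel spans 1.8 log2 units; Hspa8 lies within 0.033 units on all 6 arrays, and Hspb1 is higher in the unstable line of every pair.

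The HSP70 protein Hspa8, the constitutive member of its family, measured 13.42, 13.42 and 13.39 in unstable lines (pairs 9515, 9938 and 10074) and 13.40, 13.43 and 13.39 in their stable partners. All 6 values lay within 0.033 of each other and the groups overlapped fully. The difference was 0.0043 (SE 0.078) on the log2 scale, with a 95% interval of -0.19 to 0.19 by limma. The mean level of this probe set was at the 99.9th percentile of all probe sets, and bright probe sets varied little on these arrays: the median range over the 6 arrays was 0.247 for the 105 probe sets with a mean of at least 13, against 0.484 for all 14714 above the floor. Of its other probe sets, 2 that lay above 13 had pair differences between -0.22 and 0.091. The dimmest, near the 59.4th percentile, was at 6.92 in the unstable and 7.56 in the stable line of pair 9515, a difference of -0.64, but at -0.0090 in pair 9938 and 0.18 in pair 10074.

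By their brightest probe sets Hspa4 and Hsph1, the HSP110 exchange factors of HSP70, were lower in the unstable line of pair 9938 and not of pair 9515. Hspa4 measured 11.63, 11.43 and 11.67 in unstable lines (pairs 9515, 9938 and 10074) and 11.55, 11.72 and 11.76 in the stable lines. Its mean difference of -0.10 (SE 0.11; interval -0.37 to 0.17) came mostly from pair 9938, and the groups overlapped. Hsph1 measured 11.47, 11.25 and 11.85 in unstable lines and 11.32, 11.58 and 11.81 in stable lines in the same order. Its pair differences of 0.16, -0.32 and 0.039 gave a mean of -0.042 (SE 0.20; interval -0.52 to 0.44). The second probe set of Hsph1 gave -0.037, -0.34 and 0.041, so both had a difference below 0 in pair 9938. In this second probe set the unstable line of that pair, at 9.90, was not the lowest of the arrays. Its stable partner, at 10.24, was the highest. For Hspa4 the probe sets did not match each other, since the other 2 had -0.069 and 0.038 in pair 9938. In pair 9515 these had 0.018 and -0.20.

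Dnajb1, the J-domain partner of HSP70 that is itself induced by heat shock, measured 10.41, 9.84 and 10.11 in unstable lines of pairs 9515, 9938 and 10074 and 10.36, 10.17 and 10.12 in the stable lines. The unstable line of pair 9938 was the lowest of all 6, and the 2 other pairs differed by no more than 0.045. The mean difference was -0.098 (SE 0.16; interval -0.50 to 0.30). Its dimmer probe set, at 7.40 to 7.89, went the other way in pair 9938, at 0.26, so the direction in that pair rested on the probe set.

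Hsp90aa1, the inducible cytosolic HSP90, measured 12.97, 13.01 and 12.80 in unstable and 13.06, 13.07 and 12.76 in stable lines. The CDC20 lines were both below the 4 BubR1 lines, and within pairs the differences were -0.087, -0.064 and 0.041. The mean difference of -0.037 (SE 0.12) had an interval of -0.34 to 0.26. Its other 2 probe sets gave -0.33 and -0.30 in pair 9938, a larger difference than the brightest one, which lay at the 99.4th percentile.

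Of the CCT subunits, Cct2 measured 12.56, 12.35 and 12.50 in unstable lines of pairs 9515, 9938 and 10074 and 12.52, 12.55 and 12.63 in stable lines. Its difference was -0.094 (SE 0.098; interval -0.33 to 0.14), and with probe sets that the array names as prone to cross-hybridisation left out, a choice made after seeing the data, it was 0.022 (SE 0.16). Cct3 measured 12.01, 12.02 and 12.06 in unstable and 11.92, 12.17 and 12.01 in stable lines, a difference of -0.0067 (SE 0.098), which became -0.13 (SE 0.084) with the same probe sets left out. Cct5 measured 12.08, 11.84 and 12.15 in unstable and 11.93, 12.04 and 12.15 in stable lines, a difference of -0.018 (SE 0.12). In these 3 genes the lines of the groups were interleaved. Single probe sets of Cct2 and Cct3 were lower in the unstable line of every pair, by 0.084 to 0.14 for Cct2 and by 0.093 to 0.18 for Cct3, while the other 2 of Cct2 and the other 4 tested of Cct3 had mixed signs. The complex has 8 subunit genes that are widely expressed, Tcp1, Cct2, Cct3, Cct4, Cct5, Cct6a, Cct7 and Cct8. All 8 were tested; 6 were lower and 2 higher over the group means, from -0.15 for Tcp1 to 0.035 for Cct8, with a median of -0.032, and 0 had an unadjusted p under 0.05.

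**Figure D2:**
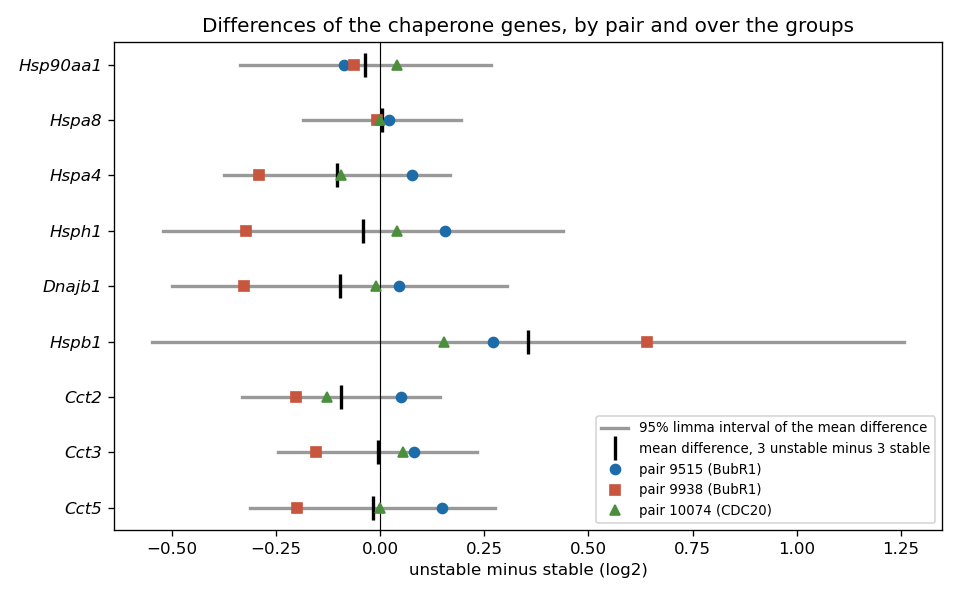
Unstable minus stable difference (x axis, log2) of each chaperone gene (y axis); coloured points are the 3 pairs, black ticks the mean difference and grey bars its 95% limma interval. The intervals are from the fit without title number as a block, and all 9 include 0. With that block the interval of Hspb1 is 0.040 to 0.67. Pair 9938 is lowest in 7 genes, and in Hspb1 the 3 pairs lie at 0.15, 0.27 and 0.64.

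The pairs differed from each other in how the chaperones lay. In pair 9938 the unstable line was lower in 8 of the 9 genes, with a median of -0.20, beside 50.4% of all genes tested. In pair 9515, also BubR1, it was lower in 1 of the 9, Hsp90aa1, with a median of 0.077, beside 49.5% of all genes. In the CDC20 pair it was lower in 3 and higher in 4, with Hspa8 and Cct5 equal to the deposited precision of 3 decimals and a median of 0, beside 54.5% lower among all genes. By the brightest probe sets the unstable line of pair 9938 was the lowest of the 6 arrays in 5 genes, Hspa4, Hsph1, Dnajb1, Cct2 and Cct5. It was not the lowest in the other probe sets of Hsph1, Dnajb1 and Cct2, and those of Hspa4 were split. Over the 25 probe sets the counts were closer to the background: 20 were lower in pair 9938, 10 in pair 9515 and 9 in pair 10074. Only 1 of the 9 genes, Hspb1, had 1 direction in all pairs, beside 36.2% of all genes. Without both lines of pair 9938 the median of the chaperones was 0.017, and without those of pair 9515 it was -0.10. Genes of cell division, given beside them as a list of 19 tested, had medians of -0.18, -0.67 and -0.75 in pairs 9515, 9938 and 10074; their part in the chaperone values was not tested. The summed macrophage and leukocyte markers were at 11.96, 14.29 and 13.41 in the unstable and 12.07, 14.23 and 14.31 in the stable lines of these pairs, and their part was not tested either.

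**Figure D3:**
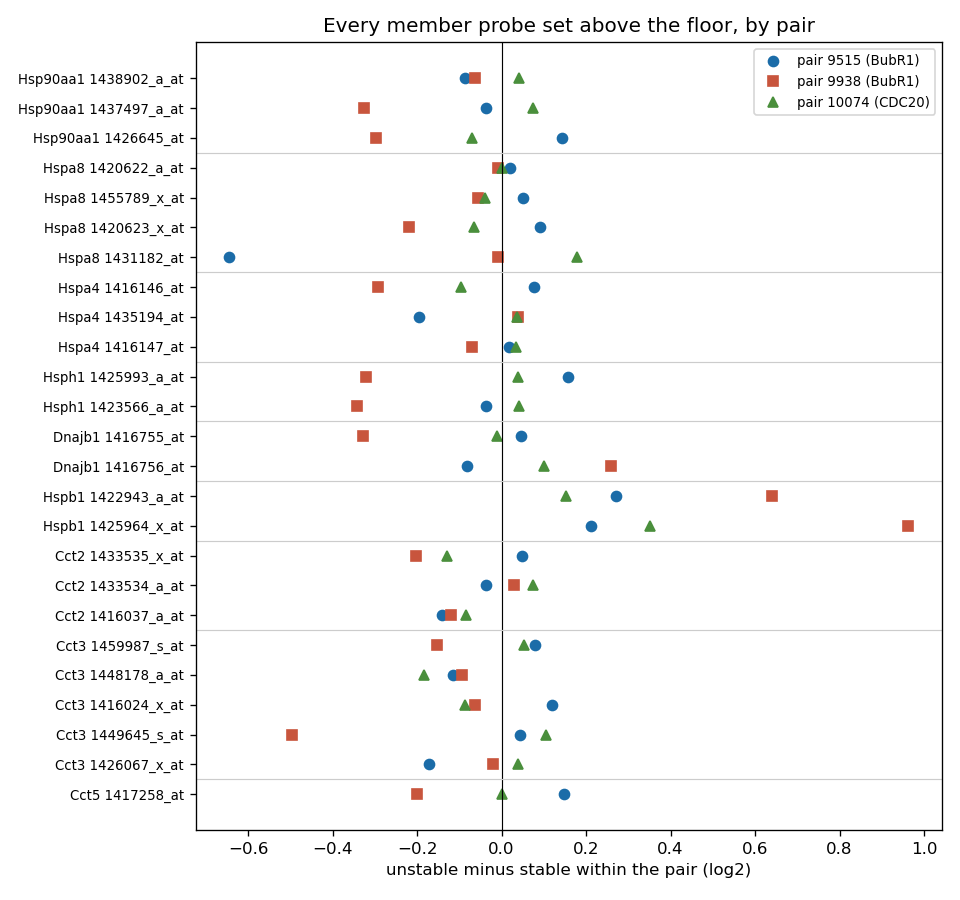
Unstable minus stable difference within each pair (x axis, log2) for the 25 probe sets above the floor (y axis, gene and probe set, brightest first within a gene). In pair 9938, 20 of the 25 are below 0; both probe sets of Hspb1 are above 0 in all pairs.

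Hspb1, the small heat shock protein HSP27 (HSP25 in mouse), was the exception. In the unstable lines of pairs 9515, 9938 and 10074 it measured 9.32, 9.07 and 9.88, against 9.04, 8.43 and 9.73 in the stable lines. Each unstable line was above its own partner, by 0.27, 0.64 and 0.15, but the pairs stood further apart than the groups, so that the groups overlapped. The CDC20 lines were the highest of the 6 and the stable line of pair 9938 the lowest. Over the groups Hspb1 averaged 9.42 ± 0.42 in unstable and 9.07 ± 0.65 in stable lines (SD, n = 3 each), which is 1.28-fold higher and did not pass limma (SE 0.37; interval -0.55 to 1.26; adjusted p = 0.999). Its dimmer probe set measured 9.10, 8.90 and 9.83 in unstable and 8.89, 7.94 and 9.47 in stable lines, with pair differences of 0.21, 0.96 and 0.35. Higher in all pairs were thus both probe sets of Hspb1, as were 15.8% of all probe sets tested. The size turned on pair 9938: the difference was 0.035 without the stable line of that pair and 0.21 without both of its lines. Leaving out the CDC20 AAA/AAA line gave 0.12, and leaving out the CDC20 +/+ line gave 0.69. Fitted with title number as a block, the same difference had an SE of 0.12 and an interval of 0.040 to 0.67, with an unadjusted p of 0.034, which 12.2% of all genes reached at 0.05, and an adjusted p of 0.365 by limma.

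The inducible HSP70 genes, which stood on the list of heat shock response genes, were higher in unstable lines too. Hspa1a had the smallest unadjusted p of that list and of the HSP70 list: it measured 5.60, 5.95 and 5.55 in unstable lines against 5.16, 5.10 and 4.96 in stable lines, in the same order of pairs. Every unstable line was above every stable line, as for 3.54% of all genes tested. The difference was 0.63 (SE 0.14) on the log2 scale with an unadjusted p of 0.0036 and an adjusted p of 0.999 by limma, and 0.262 with title number as a block. Hspa1b, named because its sequence is nearly identical to that of Hspa1a and after its values were seen, had 3 probe sets, and all 4 probe sets of both genes were higher in the unstable line of each pair. Those of Hspb1, Hspa1a and Hspa1b are plotted side by side. For Hspa1b the brightest, near 12, differed by 0.16 (SE 0.18), and the others by 0.49 (SE 0.21) and 0.38 (SE 0.20). These others had unadjusted p of 0.059 and 0.11 by limma over all probe sets and adjusted p of 0.999. With title number as a block, limma gave them unadjusted p of 0.00676 and 0.0205 and adjusted p of 0.313 and 0.372. The brightest then had 0.139 and 0.591. Of all genes tested 12.2% were under an unadjusted 0.05 with that block. Probe sets of such close copies can read each other's transcripts, so these 4 are not separate measurements of 2 genes. The Hspa1a probe set lay near the floor, where GCRMA values are least certain in size.

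Some markers of smooth muscle lay on the same side as Hspb1 and Hspa1a. Of the 6 listed, 4 were higher and 2 lower over the group means. In the unstable line of every pair 2 were higher, beside 16.9% of all genes tested. Myh11, the smooth muscle myosin heavy chain, measured 7.60, 7.87 and 7.84 in unstable and 7.01, 5.75 and 7.06 in stable lines of pairs 9515, 9938 and 10074. Its groups did not overlap, as for 3.54% of all genes in that direction (difference 1.16, SE 0.36, adjusted p = 0.999 by limma). The actin-binding calponin gene Cnn1 differed by 0.52, 0.47 and 0.25 in these pairs. The rest of the list, Acta2, Smtn, Tagln and Des, had mean differences of -0.086, -0.051, 0.026 and 0.030. In pair 10074 Des was at -0.97, and the list medians were 0.329, 0.276 and -0.0785 in pairs 9515, 9938 and 10074. The part of such cells in the values of Hspb1 and the inducible HSP70 genes was not tested.

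**Figure D4:**
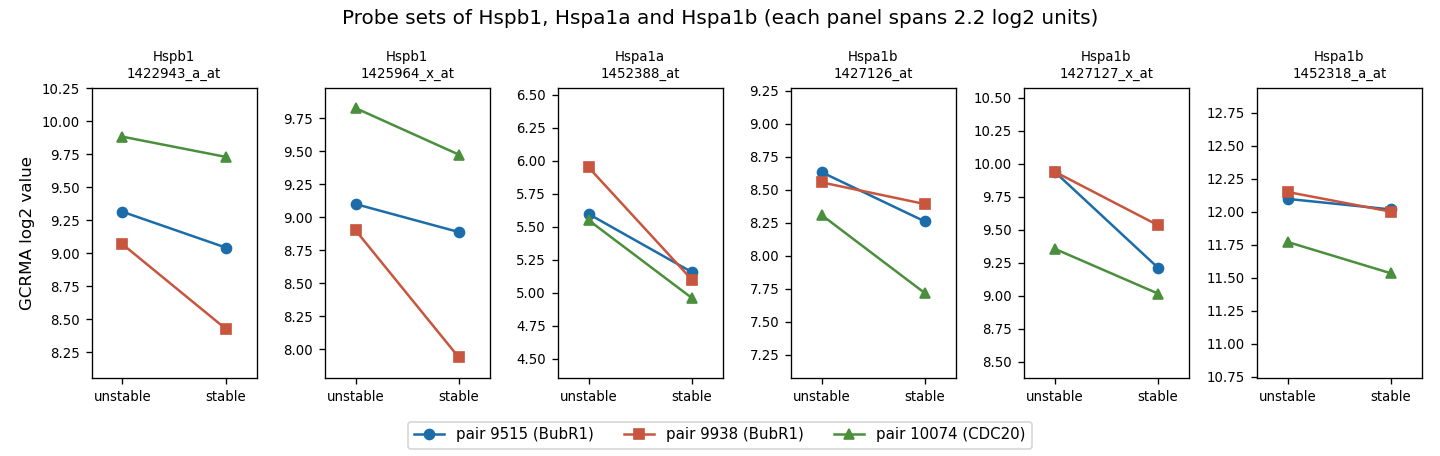
GCRMA log2 values (y axis) of the probe sets of Hspb1, Hspa1a and Hspa1b in unstable and stable lines (x axis), with the lines of each pair joined. Each panel spans 2.2 log2 units. All 6 probe sets are higher in the unstable line of all 3 pairs, as are 15.8% of all probe sets tested. The groups overlap in all but that of Hspa1a.

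HSF1 binds heat shock elements, inverted repeats of the letters GAA, and promoters of these genes are shown because Hspb1 and the inducible HSP70 genes lay on one side while other chaperones did not. RefSeq promoters (GRCm38.p6, 250 bases before to 50 after an annotated start) were found for 7 of the 10 listed genes. They were searched for GAANNTTC and TTCNNGAA, each of which reads the same on both strands, and overlapping copies were counted. Such letters were present at 1 or more starts of Hspb1, Hsph1, Cct2 and Cct5 and not in the windows of Hspa4, Dnajb1 and Cct3; of all 32851 promoter windows 15.1% held 1 of them. Hspb1 had GAANNTTC 2 times, 117 and 97 bases before its start, as 0.344% of windows did at least 2 times. A run of 3 units, in which both motifs share 3 letters, was found in the windows of Hsph1 and of no other of the 7 genes, past its annotated start, and in 0.603% of all windows. A match describes the letters and is not a shown binding site. Capitals mark the matching letters in the stretches that follow, written in the direction of transcription: Hspb1 at chr5:135887784-135887843 on the plus strand, Hspa1a at chr17:34972232-34972291, Hsph1 at chr5:149636287-149636308, Cct2 at chr10:117063399-117063428 and Cct5 at chr15:31601862-31601891, the last 4 on the minus strand.
Hspb1: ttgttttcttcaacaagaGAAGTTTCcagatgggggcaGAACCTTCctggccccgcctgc
Hspa1a: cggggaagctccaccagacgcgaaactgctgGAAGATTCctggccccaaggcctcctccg
Hsph1: gctgcagaTTCTGGAAAGTTCt
Cct2: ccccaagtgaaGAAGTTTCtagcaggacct
Cct5: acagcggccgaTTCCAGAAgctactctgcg
Of the genes with these letters, Hspb1, Hspa1a and Hspa1b (1 match, stretch not shown) were higher in every unstable line than in its partner. Hsph1, Cct2 and Cct5 had pair differences of both signs. The part of these letters in the values was not tested.

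Of the wider chaperone lists, 0 members passed limma adjusted over all genes. Of the heat shock response list, 20 were tested, of which 7 were higher and 13 lower over the group means, with a median of -0.020 and an unadjusted p under 0.05 for 2, beside 4.28% of all genes, or for 4 when blocked by title number, beside 12.2%. Its highest members were Hspa1a and Hspb1, and its lowest were Hspd1, the mitochondrial HSP60, at -0.26 (SE 0.086) and Ahsa1, an activator of the HSP90 ATPase, at -0.24 (SE 0.13). Hspd1 measured 11.27, 11.26 and 11.34 in unstable lines and 11.50, 11.63 and 11.52 in stable lines of pairs 9515, 9938 and 10074, so the groups did not overlap, as for 6.41% of all genes in that direction; its unadjusted p was 0.023. Bag3, a cochaperone that HSF1 also induces, named after its values were seen, was at 9.70, 9.66 and 9.73 in unstable and 9.62, 9.65 and 9.65 in stable lines, a difference of 0.059 (SE 0.079). Its pair differences of 0.086, 0.010 and 0.080 were small but all above 0. The groups did not overlap, as for 3.54% of all genes in that direction.

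Of the HSP90 system 10 of 11 were lower; the median was -0.090, and by pair -0.047 in 9515, -0.16 in 9938 and -0.10 in 10074. The lowest, Fkbp5, an HSP90 cochaperone that glucocorticoids induce, was at -0.41 (SE 0.37), and the highest, Cdc37l1, at 0.21 (SE 0.17). Of the HSP70 system 7 of 17 were higher, with Hspa2 at 0.18 (SE 0.11) next below Hspa1a, and the cochaperone Bag5 at -0.18 (SE 0.095) and the ubiquitin ligase Stub1 at -0.16 (SE 0.10) lowest. In this list 3 genes, with Hspa2 among them, were higher without overlap of the groups, beside 3.54% of all genes. Another 2 were lower without overlap, beside 6.41%. Of the J-domain proteins 6 of 14 were higher, with Dnajb5 at 0.24 (SE 0.17) and Dnaja4 at 0.18 (SE 0.30) highest. Dnajc9, a histone chaperone, was lowest at -0.37 (SE 0.12), with an unadjusted p of 0.019, and Dnajc21 next at -0.19 (SE 0.13). Of the small heat shock proteins 3 of 5 were higher; next to Hspb1 stood Hspb11 at 0.18 (SE 0.17), which is known as an intraflagellar transport protein, while Hspb8 was at -0.0030 (SE 0.21) and Hspb2, near the floor, at -0.030 (SE 0.40). The eye lens and muscle chaperone Cryab was at 0.084 (SE 0.17).

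On the list of CCT and its cochaperone prefoldin 11 of 15 were lower, with a median of -0.047. The list also holds Txndc9 and Pdcl3, which are not subunits of either and were both lower. Pfdn6 at -0.20 (SE 0.11) and Tcp1 at -0.15 (SE 0.12) were lowest, and Pfdn5 at 0.096 (SE 0.18) and Vbp1 at 0.059 (SE 0.090) highest. The actin and tubulin genes, whose products CCT folds, were lower in 8 of 8 by small amounts, with a median of -0.048, from the tubulin genes Tubb4b at -0.22 (SE 0.092) and Tubb5 at -0.13 (SE 0.089) to Tubb2b at -0.015 (SE 0.10) and Tubb2a at -0.0073 (SE 0.099). Of the mitochondrial chaperones 7 of 9 were lower, with a median of -0.063, Lonp1 next lowest to Hspd1 at -0.12 (SE 0.18), and Clpx at 0.17 (SE 0.13) and Clpp at 0.048 (SE 0.083) highest. Of the ER chaperones 6 of 12 were lower, with a median of -0.011; the disulfide isomerase gene Pdia4 at 0.27 (SE 0.23) and Dnajb9 at 0.12 (SE 0.15) were highest, and Sdf2l1 at -0.22 (SE 0.24) and Pdia3 at -0.055 (SE 0.19) lowest. Of the heat shock factors only Hsbp1, a small HSF1-binding protein, was tested, at 0.051 (SE 0.16), since Hsf2 and Hsf4 lay below the floor and Hsf1 had no probe set that names it alone. By contrast 19 of 19 cell division genes were lower over the group means, with a median of -0.57 and 18 of the 19 lower in all pairs, beside 19.3% of all genes; 0 of them passed the adjusted threshold of limma and 7 had an unadjusted p under 0.05, beside 4.28% of all genes, or 18 when blocked by title number, beside 12.2%. Bub1b and the kinase gene Aurkb, at -1.45 (SE 0.31) and -0.75 (SE 0.35), were the lowest of them, and the replication genes Mcm6 at -0.27 (SE 0.24) and Rrm2 at -0.19 (SE 0.098) the highest. The list includes Bub1b and Cdc20, the genes mutated in the unstable lines, and Bub1b had also served as a check of the labels.

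**Figure D5:**
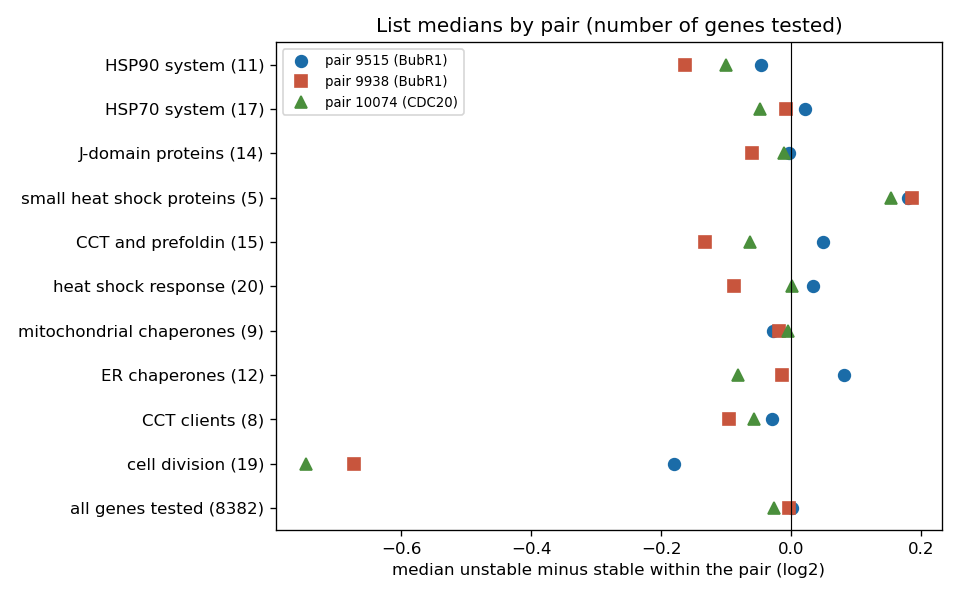
Median unstable minus stable difference within each pair (x axis, log2) of the gene lists (y axis, number of genes tested). The wider chaperone lists plotted lie between -0.16 and 0.19 in every pair, and the cell division list between -0.75 and -0.18.

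Within the BubR1 lines alone, the contrast of H/H with +/+ in a limma model of 4 groups asked the same question for 1 of the mutations. Hspb1 was again the highest of the 9, at 0.46 (SE 0.26; interval -0.30 to 1.21; unadjusted p = 0.16), and the other 8 lay between -0.14 for Dnajb1 and 0.0065 for Hspa8. The value of Hspb1 turned on the stable lines: leaving out stable line 9938 gave 0.15, and leaving out stable line 9515 gave 0.76, where limma gave an adjusted p of 0.673. Of the 9, 0 passed the adjusted threshold, as did 0% of all genes, and 0 had an unadjusted p under 0.05, beside 3.15% of all genes. Blocked by title number, Hspb1 had an unadjusted p of 0.029, beside 8.58% of all genes, and an adjusted p of 0.537. For the CDC20 lines there is 1 line per genotype and no replicate check; Hspb1 differed by 0.15 and the other 8 by -0.13 to 0.054. The difference between the CDC20 and the BubR1 effect was tested as an interaction and passed in 0 of the 9 and in 0% of all genes, with unadjusted p under 0.05 in 0 of the 9 and in 1.59% of all genes. Blocked by title number the interaction again had 0 of the 9 at an unadjusted p under 0.05, beside 5.68% of all genes. On simulated data the interaction fit blocked by title number recovered 34% of 2-fold and 98.6% of 4-fold changes at the adjusted threshold. It recovered 3% of 1.5-fold changes and made 26.2 false calls on average. The interaction fit without a block recovered 0% of 8-fold changes at that threshold. Its 0 calls at that threshold could hardly have come out otherwise and do not show that the effects were alike.

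The genes whose profiles over the 6 arrays lay closest to those of the most variable chaperones were found by the root mean square distance after each gene was centred on its own mean. For Hspb1, with a range of 1.46 over the arrays, they were Pop4 (distance 0.0825), Tmem140 (0.101) and Cd55 (0.112), whose pair differences were all above 0, from 0.055 to 0.79. For Hsph1, with a range of 0.59, they were Pdia3 (0.0528), Gnas (0.0563) and Aprt (0.0594). For Dnajb1, with a range of 0.57, they were Hmces (0.0359), Nek3 (0.041) and Dtna (0.0419). In all 6 neighbours of Hsph1 and Dnajb1 pair 9938 had the lowest difference, from -0.37 to -0.25. Distances are in log2 units and describe 6 arrays. The neighbours were chosen on these same arrays, so pair differences like those of the chaperone follow from the choice and are not separate support.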

How the data were processed

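Deposited values for 6 arrays of fibroblast RNA were used; 0 other columns of values were present. The authors' tools were R 2.15.3 with GCRMA 2.28.0, per the submitters' processing notes, and the deposited values are on a log2 scale, from 0.922 to 14.393. GCRMA brings arrays to a common distribution, so an overall shift in RNA would not show. Per the labels' protocols RNA was amplified and labelled with biotin.

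Of 22626 probe sets 20380 had 1 gene symbol in the platform annotation, 691 had several and 1555 were not listed; only the first were used. Their Entrez identifiers were found in RefSeq GRCm38.p6 for 20351, and 0 symbols changed. Each gene was represented by its brightest probe set, and genes at or above 4 (log2) on 3 or more arrays were tested with limma 3.58.1 in R 4.3.3 (lmFit, eBayes, two-sided, adjusted p under 0.05). A second fit used 13589 single probe sets. The smallest p of an exact permutation test of 3 against 3 is 0.1, so none was used. Members and lists were chosen with earlier results of these data known. Named genes were the members, the 2 highest and 2 lowest of each list, Bub1b, Cdc20 and the nearest profiles. Bag3, Cryab, Cct8, Hspa1b, Myh11, Cnn1, Acta2, Smtn, Tagln and Des were added after values were seen.

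Lines that share a title number had correlated deviations from the group means across genes, at 0.812, 0.681 and 0.602 in pairs 9515, 9938 and 10074, so the numbers were treated as pairs, and the replicate block is reported where it bears on a gene. The fits were tested on simulated data. Without a block, they recovered 53.6% of 2-fold changes for unstable against stable, 0.3% for BubR1 and 0% for the interaction. With title number as a block they recovered 97.9%, 97.1% and 34%, with 12.8, 30 and 26.2 false calls on average. The simulated noise was the spread left in the blocked fit. Alternatives were other filters, the mean of probe sets, renormalization, a robust prior with an intensity trend, array weights and leaving out lines or pairs.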

Additional observations from a re-analysis of the deposited data

How the results depend on the processing

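Under every setting run, 0 genes passed the adjusted threshold in each of the 3 contrasts, and no call on a chaperone changed. The median of the chaperones was -0.0367 and stayed between -0.0499 and -0.018 with other filters, probe set means, renormalization, variance models and array weights, and between -0.1 and 0.017 when lines or pairs were left out. With the replicate block it was again -0.0367, since pairs are balanced, and the paired fit changed no call. Differences near 0 changed sign. With the mean of the probe sets Hspa8 was at -0.0582 in unstable against stable lines and at -0.0966 for BubR1, and the CDC20 minus BubR1 difference was 0.115 for Hspa8 and 0.0243 for Cct2. After quantile normalization Cct3 was at 0.00153, and the CDC20 minus BubR1 difference of Hspa8 was 0.0448, or 0.0165 with arrays shifted to one median. Without probe sets named _x_at or _s_at, a choice made after seeing the data, Cct2 was at 0.022 and Cct3 at -0.13. The cause was not tested.

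Leaving out lines or pairs changed the sign of these unstable minus stable differences, with ranges of Hsp90aa1 -0.138 to 0.0255, Hspa8 -0.004 to 0.014, Hsph1 -0.203 to 0.0975, Dnajb1 -0.241 to 0.0415, Cct3 -0.0623 to 0.067 and Cct5 -0.1 to 0.0735. The difference of Hspb1 stayed above 0 in each of these fits, from 0.0352 to 0.686, and those of Hspa4 and Cct2 stayed below 0. For BubR1 H/H minus BubR1 +/+ the sign changed with ranges of Hspa8 -0.006 to 0.019, Hsph1 -0.213 to 0.0475, Dnajb1 -0.424 to 0.142, Cct2 -0.185 to 0.0325, Cct3 -0.162 to 0.0875 and Cct5 -0.144 to 0.09. For the CDC20 effect minus the BubR1 effect they were Hspa8 -0.019 to 0.006, Hspa4 -0.0865 to 0.111, Hsph1 -0.0085 to 0.253, Dnajb1 -0.153 to 0.413, Hspb1 -0.61 to 0.005, Cct2 -0.162 to 0.0565, Cct3 -0.0335 to 0.216 and Cct5 -0.09 to 0.144. For single probe sets, named by gene, they were Cct3 -0.093 to 0.0595, Hspa4 -0.1 to 0.0772, Dnajb1 -0.241 to 0.0415, Dnajb1 -0.0215 to 0.171, Cct5 -0.083 to 0.073, Hspa8 -0.0025 to 0.014, Hspa8 -0.109 to 0.01, Hsph1 -0.244 to 0.0413, Hsph1 -0.203 to 0.0923, Cct3 -0.17 to 0.0332, Hsp90aa1 -0.157 to 0.028, Hspa8 -0.34 to 0.0747, Cct2 -0.109 to 0.126, Hspa4 -0.129 to 0.0732, Hsp90aa1 -0.138 to 0.0255, Cct3 -0.224 to 0.0232, Hspa8 -0.0582 to 0.0173 and Cct3 -0.0623 to 0.0622.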
